A study of Mus musculus with 2 samples.

Results

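The replication-dependent histone genes encode the H1, H2A, H2B, H3 and H4 proteins that package newly copied DNA. They were taken as all genes whose GENCODE M21 symbol begins with Hist1h, Hist2h, Hist3h or Hist4h and whose identifier stands in both gene tables, which gave 67 of 43346 Ensembl genes. By type these were 6 H1, 20 H2A, 16 H2B, 12 H3 and 13 H4 genes, and by cluster 54 Hist1, 9 Hist2, 3 Hist3 genes and 1 Hist4 gene. Of the 67, 3 are annotated as pseudogenes (Hist1h2aj, Hist1h2al and Hist3h2bb-ps). The symbols Hist1h2bh, Hist1h2bm and Hist2h2bb also fit the pattern, but their M21 identifiers had no match in the tables and they are not counted among the 67.

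The libraries came from total RNA of whole mouse stomach at embryonic day 16.5, from embryos of the B6NCrl strain described as healthy. Both belong to 1 group, replicates 1 and 2. Each pooled the stomachs of several embryos of both sexes, 41 for replicate 2 and an unstated number for replicate 1. No treatment, genotype or time was varied, so the data give the level of each histone gene in this tissue and the distance between 2 pools, and no conditions were compared. RNA longer than 200 nt was kept and 10 ng entered each library. The assay is called total RNA-seq in the labels, which also list the manual of a SMARTer Ultra Low RNA kit; whether reverse transcription was primed from poly(A) tails is not given in the sources used here.

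Replication-dependent histone mRNAs are made mainly in S phase, when a cell needs new nucleosomes. Unlike other mRNAs they end in a short stem-loop in place of a poly(A) tail: the stem-loop binding protein SLBP holds the stem-loop, the U7 small nuclear RNP directs the cut just after it, and the mRNA is degraded when DNA synthesis stops. The genes are short, mostly without introns and clustered, with many near-identical copies. Histone variants such as H3.3 and H2A.Z come from single, polyadenylated genes elsewhere and are made through the whole cell cycle.

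The stem-loop is the feature that sets these mRNAs apart, so its forms are shown first, from the GENCODE M21 transcripts. The search asked for a 6-base stem that begins with GG and is closed by its reverse complement around a 4-base loop that begins with TTT, on the sense strand after the stop codon. Of the 67 members, 42 had a transcript in M21 holding such a stem-loop, in 6 forms. Stems are in capitals and loops in lower case, 5′ to 3′, and each line names a gene that carries the form.
Hist1h2ap: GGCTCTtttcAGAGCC
Hist1h4d: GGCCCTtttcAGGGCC
Hist1h2bk: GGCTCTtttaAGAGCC
Hist1h4i: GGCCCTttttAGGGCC
Hist1h4b: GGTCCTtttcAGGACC
Hist2h2ac: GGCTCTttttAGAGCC

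The form shown for Hist1h2ap (chr13:21833029-21833044, GRCm38, minus strand) was the commonest. It stood in 24 members, 3 of H1, 10 of H2A, 6 of H2B and 5 of H3, and in no H4 gene. The 11 H4 genes with a stem-loop used 3 other forms: 7 shared the form of Hist1h4d (chr13:23581950-23581965, plus strand), 2 that of Hist1h4i and 2 that of Hist1h4b. The form of Hist1h2bk stood in 6 members and that of Hist2h2ac in 1. H4 stems and the stems of the other types therefore did not share a form. Within the first 100 bases after the stop codon a stem-loop was found in 24 of the 30 members with an M21 transcript that reaches at least that far, whatever its length in the tables, against 8 of 47319 other transcripts that reach as far (0.0169%). Many of the other stem-loops, that of Hist1h2ap among them, lie in transcripts annotated to end sooner. A member without a match may have an annotation that stops short of it: 12 of the 48 members with a transcript of equal length were annotated to the stop codon only.

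Promoters are shown for the gene with the highest level among the matched promoters that hold each of 3 motifs, the CCAAT box (CCAAT), the TATA box (TATAAA) and the octamer (ATTTGCAT), which OCT1 is known to bind in H2B promoters. Each line holds the 200 bases before the RefSeq start site (GRCm38.p6), 5′ to 3′ in the direction of the gene, with matches on either strand in capitals. For Hist1h2ap that start site lies 32 bases inside the M21 gene. The last 32 bases of its line are therefore annotated in M21 as transcribed, and the line stops just before an ATG. The positions are chr13:21833476-21833675 (minus strand) for Hist1h2ap, chr13:23581368-23581567 (plus strand) for Hist1h4d and chr13:23571221-23571420 (minus strand) for Hist1h2ae.
Hist1h2ap: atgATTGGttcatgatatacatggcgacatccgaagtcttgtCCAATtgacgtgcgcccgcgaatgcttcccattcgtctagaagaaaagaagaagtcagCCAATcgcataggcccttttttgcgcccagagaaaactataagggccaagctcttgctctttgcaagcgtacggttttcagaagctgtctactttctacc
Hist1h4d: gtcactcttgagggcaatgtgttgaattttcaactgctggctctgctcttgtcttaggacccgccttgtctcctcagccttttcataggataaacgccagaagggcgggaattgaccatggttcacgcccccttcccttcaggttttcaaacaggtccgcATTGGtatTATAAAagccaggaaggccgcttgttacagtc
Hist1h2ae: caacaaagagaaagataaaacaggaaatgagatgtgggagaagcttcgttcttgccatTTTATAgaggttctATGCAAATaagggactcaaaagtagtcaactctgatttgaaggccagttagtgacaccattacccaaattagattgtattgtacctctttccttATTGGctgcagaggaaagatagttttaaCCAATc

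In the line of Hist1h2ap the capitals are 3 CCAAT boxes, 2 as CCAAT and 1 on the opposite strand. In that of Hist1h4d they are a CCAAT box on the opposite strand and, starting 32 bases before the start site, a TATA box; the motifs do not overlap. In that of Hist1h2ae they are a TATA box on the opposite strand, the octamer on the opposite strand starting 128 bases before the start site, and 2 CCAAT boxes. RefSeq promoters of 300 bases, 250 before and 50 after the start site, were matched for 58 of the 67 members and searched on both strands. Hist1h2bc, among the highest members, was not matched, so the genes shown are the highest of those matched only. A CCAAT box stood in 49 of the 58 (84.5%) and in 37.8% of 26963 other promoters. All matched H1, H2A, H2B and H3 genes held one (5, 18, 13 and 10), against 3 of 12 H4 genes. TATAAA stood in 34 of 58 (58.6%), against 14.1% of other promoters. Counted only where it begins 20 to 40 bases before the start on the sense strand, it stood in 11 of 58 (19.0%), against 2.18%. That count depends on the start site used. In Hist1h2ak the RefSeq start lay 85 bases before the M21 start, and TATAAA began 21 bases after the RefSeq start. In Hist1h4k the RefSeq start lay 48 bases before the M21 start, and TATAAA began 16 bases before the RefSeq start. The octamer stood in 11 of 58 (19.0%), in 7 of 18 H2A and 4 of 13 H2B genes, and in 1.71% of other promoters. All 7 H2A matches lay on the opposite strand and all 4 H2B matches on the sense strand. The same site was counted for both genes in Hist1h2aa with Hist1h2ba, Hist1h2ae with Hist1h2bg and Hist1h2ah with Hist1h2bk. The octamer and opposite-strand TATA box shown for Hist1h2ae are thus sense-strand matches of Hist1h2bg. Other TATAAA sites were also counted for both genes of a pair. The opposite-strand matches of Hist1h2bf, Hist1h2bk, Hist1h2bn and Hist1h2bp are sense-strand matches of Hist1h2ad, Hist1h2ah, Hist1h2ak and Hist1h2an. CCAAT sites were shared in the same way, for example by Hist1h2ad and Hist1h2bf, so these counts of genes exceed the counts of separate sites. A match describes the letters in the window and is not a measured binding site.

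Histone mRNAs held a small share of the sequenced RNA. The tables give a total of 44567153 expected counts in replicate 1 and 25677702 in replicate 2, of which spike-ins took 3.08% and 2.05%. The 67 members took 0.101% and 0.0784% of the counts of genes. In TPM (read counts divided by transcript length and scaled to a fixed total per library), they summed to 3277 in replicate 1 and 2578 in replicate 2, 2928 ± 494 (SD, n = 2 libraries). The median member stood at 3.47 and 3.31 TPM, while the median of all genes at 1 TPM or more in both libraries was 15 and 15.6. In whole tissue, the share of cells in S phase and the histone mRNA per cell cannot be told apart. How well mRNAs without a poly(A) tail were captured was not tested, and no other tissue was compared.

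Most members were detected. Of the 67, 46 (68.7%) reached 1 TPM in both libraries, where 35.5% of all Ensembl genes and 64.3% of protein-coding genes did; among the 64 protein-coding members the share was 71.9%. By type the count was 4 of 6 for H1, 14 of 20 for H2A, 11 of 16 for H2B, 9 of 12 for H3 and 8 of 13 for H4. A further 13 members reached 1 TPM in 1 library only, and 8 in neither. Levels of 10 TPM or more in both libraries were found for 18 members and of 100 or more for 3. Next to the threshold, Hist1h2bn was just inside (1.11 TPM in its lower library) and Hist1h1a just outside (0.970).

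A single H2A gene outweighed all the others. Hist1h2ap (chr13:21833026-21833507, minus strand) reached 2237 TPM in replicate 1 and 1713 TPM in replicate 2 (1975 ± 370.4), from 26293 and 11259.8 expected counts. It made up 68.3% and 66.4% of the summed member TPM and ranked 30 and 51 among all genes by TPM. Without it the members summed to 1040.2 and 865 TPM. The same 5 genes led in both libraries, Hist1h2ap, Hist1h4d, Hist1h2bc, Hist1h2ae and Hist1h3i, and together held 85.3% and 83.3% of the summed level.

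**Figure D1:**
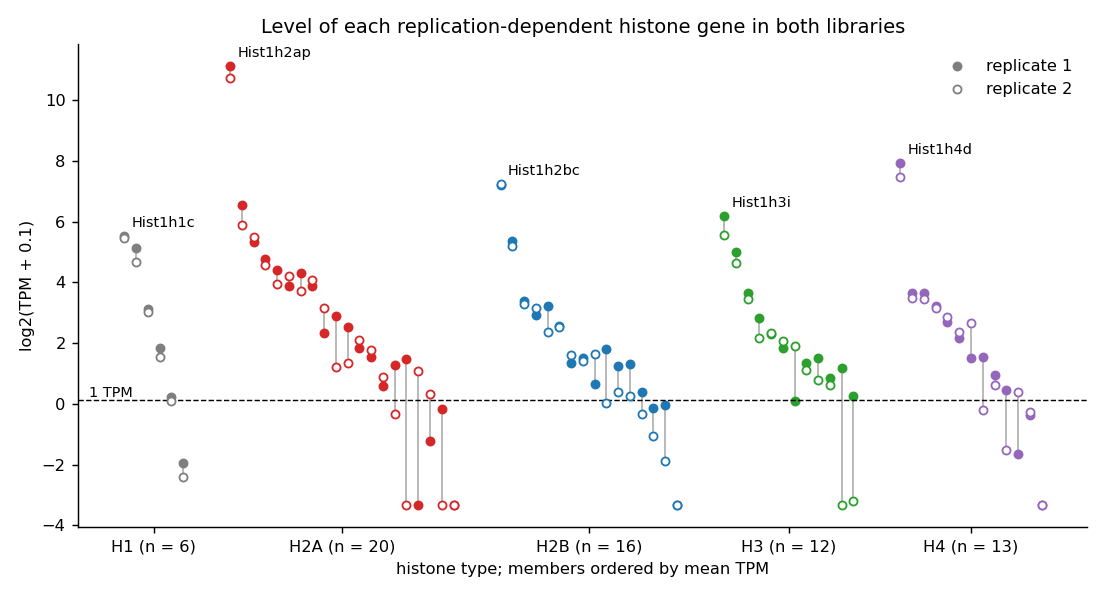
Each of the 67 members is plotted as log2(TPM + 0.1) in replicate 1 (filled) and replicate 2 (open), ordered by mean TPM within its histone type, with a grey line joining its libraries and a dashed line at 1 TPM. Hist1h2ap stands at 2237 and 1713 TPM above every other member. Some low members have long lines, such as Hist1h2ao (2.70 and 0 TPM), and others short ones, such as Hist4h4 (0.680 and 0.730).

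H2A genes encode a core histone that pairs with H2B. Behind Hist1h2ap, Hist1h2ae (chr13:23570517-23571220, minus strand) stood at 93.0 and 59.5 TPM, with no overlap between it and any other H2A gene. Hist2h2aa2 (chr3:96239749-96240276, minus strand) stood at 40.6 and 45.0 and its near-identical neighbour Hist2h2aa1, not among the 4 highest, at 14.8 and 16.8. Next came Hist3h2a (chr11:58954685-58956830, plus strand) at 27.1 and 23.9, below both values of Hist2h2aa2. The remaining 16 H2A genes ran from 21.2 TPM in Hist1h2ag to 0. Hist1h2aa, a variant of the male germ line, was at 0 in both libraries.

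H2B genes stood lower and had another leader. Hist1h2bc (chr13:23684199-23692908, plus strand) was at 148 and 150.2 TPM, 149 ± 1.46. Hist3h2ba followed at 41.1 and 36.9, then Hist1h2bg at 10.3 and 9.72 and Hist2h2be at 7.51 and 8.85. The order of these 4 was the same in both libraries and their values did not overlap. The annotated transcripts of Hist3h2ba and Hist2h2be (2620 bases) run to a poly(A) signal. In all, 10 members had such an end, Hist1h1c, Hist3h2a and Hist1h4i among them, and 22 members were not classed. The male germ-line gene Hist1h2ba was at 0 in both, and the pseudogene Hist3h2bb-ps at 0.870 and 0.170. Hist2h2bb, outside the count of 67, had its transcript listed under another gene identifier at 10.0 and 6.12 TPM; it was looked up after values had been seen.

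H4, the most conserved histone, was led by 1 gene as well. Hist1h4d (chr13:23581598-23582735, plus strand) stood at 245 and 177 TPM, and no other H4 gene exceeded 12.5. Hist1h4i was at 12.4 and 11.1, Hist1h4n at 12.5 and 10.8, and Hist1h4c at 9.19 and 8.75. The values of Hist1h4i and Hist1h4n overlapped. Hist1h4m, nearly the same in sequence as Hist1h4n, was at 0 in both libraries, and Hist4h4, the single gene of the Hist4 cluster (chr6:136801553-136804415, minus strand), at 0.680 and 0.730 TPM.

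H3 genes encode the canonical H3.1 and H3.2 proteins. Hist1h3i (chr13:21782960-21783370, minus strand) led with 73.4 and 47.5 TPM. Hist2h3b stood at 31.8 and 25.0, Hist1h3d at 12.6 and 10.8 and Hist1h3g at 6.93 and 4.40, with no overlap among the 4. Hist2h3c1 and Hist2h3c2, which share long stretches of sequence, were at 1.10 and 2.15 TPM in replicate 1 and at 0.0100 and 0 in replicate 2. A further transcript that M21 gives to Hist2h3c1 is listed under another identifier, with 0.1 expected counts in replicate 1 and 52.0 in replicate 2; with it Hist2h3c1 stood at 1.10 and 1.76 TPM.

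H1 genes encode the linker histone that sits outside the nucleosome core. Hist1h1c (chr13:23738808-23740367, plus strand) stood at 46.2 and 44.2 TPM and Hist1h1e at 34.8 and 25.2. Hist1h1b was at 8.55 and 8.05 and Hist1h1d at 3.52 and 2.83. The 4 genes kept this order without overlap. Hist1h1t, the H1 of spermatocytes, was at 0.160 and 0.0900 TPM. No gene of a 12-gene germ cell list reached 1 TPM in both libraries, and that list summed to 0.580 and 0.380 TPM.

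Summed by type, H2A took most of the histone mRNA. Its genes summed to 2499.7 and 1932 TPM, 75.6% ± 0.959 of the member total (SD, n = 2). H4 summed to 299 and 230.1 TPM (9.03% ± 0.143) and H2B to 239.6 and 229 (8.10% ± 1.12), so their ranges overlapped. H3 summed to 144 and 106 TPM (4.25% ± 0.212) and H1 to 94.3 and 81.3 (3.02% ± 0.196), each below every value of the types before it. The order of H1 and H3 turned with expected counts, which are not corrected for length: H1 then took 7.32% and H3 3.69%, with H4 at 7.25%. With 2 libraries, the smallest two-sided p that an exact sign-flip test can give is 0.5, so none of these orders can pass a test at 0.05.

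The lead of H2A rested on Hist1h2ap. Without that gene, a split made after the values were seen, H4 took 27.7% ± 1.53, H2A 25.3% ± 0.00628, H2B 24.8% ± 2.45, H3 13.0% ± 1.16 and H1 9.23% ± 0.236 of the remaining TPM. The shares of H4, H2A and H2B were 28.8%, 25.3% and 23.0% in replicate 1 and 26.6%, 25.3% and 26.5% in replicate 2, so H2A and H2B changed order. H3 lay below these 3 in both libraries, at 13.9% and 12.2%.

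**Figure D2:**
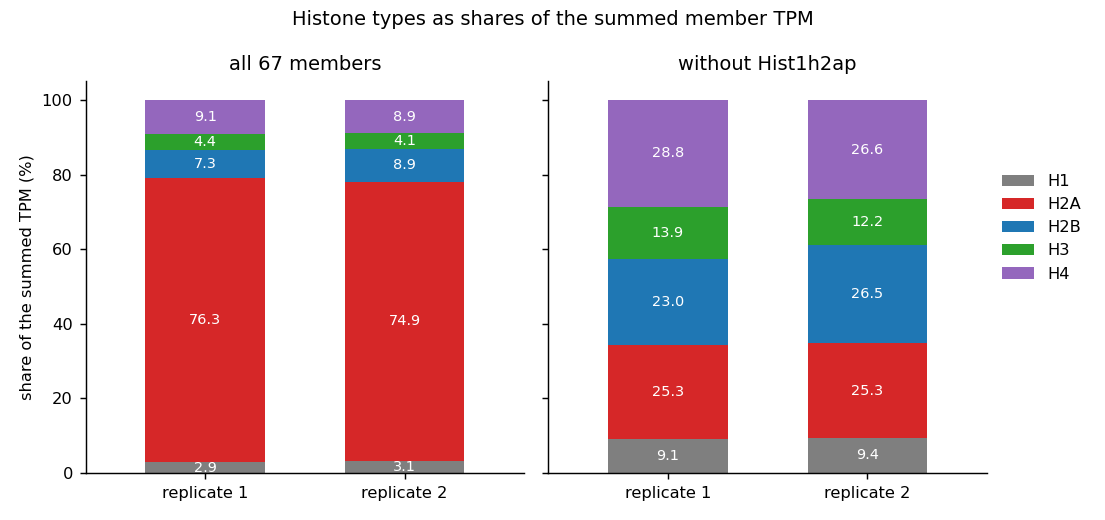
Stacked bars give the share (%) of the summed member TPM held by each histone type in replicates 1 and 2, over all 67 members (left) and without Hist1h2ap (right). H2A holds 76.3% and 74.9% on the left and 25.3% in both bars on the right.

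By cluster, Hist1 on chromosome 13 held 94.0% ± 0.684 of the summed TPM, Hist2 on chromosome 3 held 3.73% ± 0.499, Hist3 on chromosome 11 2.24% ± 0.180 and Hist4 on chromosome 6 0.0245% ± 0.00535. Without Hist1h2ap the shares were 81.7%, 11.4%, 6.84% and 0.0749%. The median member stood at 3.10 and 3.17 TPM in Hist1, 6.34 and 7.19 in Hist2 and 27.1 and 23.9 in Hist3, where it is Hist3h2a. The highest genes of Hist1 to Hist4 were Hist1h2ap, Hist2h2aa2, Hist3h2ba and Hist4h4.

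Within Hist1, genes were grouped where gaps between neighbours were under 100000 bases. The first block (chr13:21715763-21837530) holds 18 members and summed to 2369 and 1829.8 TPM, or 132 and 117 without Hist1h2ap. A block of 5 genes (chr13:22035164-22043676) summed to 55.8 and 39.5 TPM, and all 5 reached 1 TPM in both libraries. A block further on (chr13:23531050-23764406), with 28 members that include all H1 genes but Hist1h1b, summed to 671 and 541 TPM, led by Hist1h4d. The Hist1h2aa and Hist1h2ba pair beyond it was at 0 throughout. Without Hist1h2ap, the 28-gene block had the largest sum of the blocks in both libraries.

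Many H2A and H2B genes stand head to head and share the stretch between their starts. Among members, 13 such pairs had 172 to 305 bases between the annotated starts. The H2A gene was higher in both libraries in 8 pairs and the H2B gene in 2. Hist1h2ap and its partner Hist1h2br, 235 bases apart, stood at 2237 and 1713 against 0.820 and 0.380 TPM. With a transcript listed under another identifier, Hist1h2br stood at 3.52 and 2.04 TPM. The opposite was seen for Hist1h2ac and Hist1h2bc, 250 bases apart, at 3.52 and 4.17 against 148 and 150.2 TPM. Hist3h2a, 172 bases from the pseudogene Hist3h2bb-ps, stood at 27.1 and 23.9 against 0.870 and 0.170 TPM. In Hist2h2ac and Hist2h2be the H2B gene was also higher in both, 5.68 and 2.47 against 7.51 and 8.85. Hist1h2ah with Hist1h2bk and Hist1h2ao with Hist1h2bq changed order between the libraries. In 10 of the 13 pairs, then, the same partner had the higher value in both libraries. Not all of these orders are resolved. In replicate 1 the intervals given with the TPM overlapped for Hist1h2ad (0.804 to 5.21) and Hist1h2bf (1.33 to 3.42). They also overlapped for Hist1h2an (0.215 to 3.87) and Hist1h2bp (0.528 to 2.37).

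**Figure D3:**
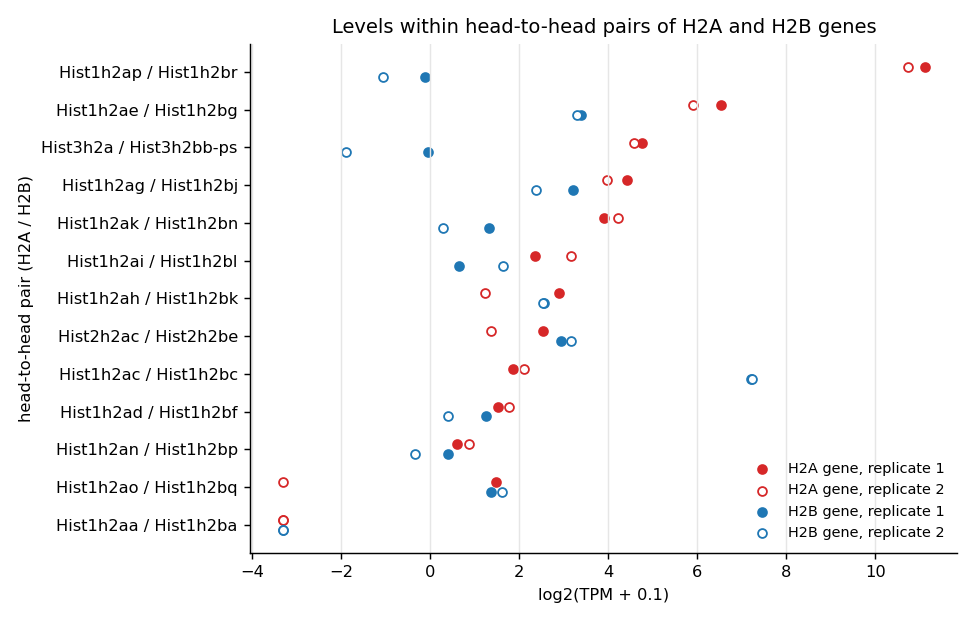
For the 13 head-to-head pairs, ordered by the mean level of the H2A gene, log2(TPM + 0.1) is shown for the H2A (red) and H2B (blue) gene in replicate 1 (filled) and replicate 2 (open). Red lies to the right in 8 pairs and blue in 2, with wide gaps in Hist1h2ap with Hist1h2br, in Hist3h2a with Hist3h2bb-ps and in Hist1h2ac with Hist1h2bc.

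Near-identical copies limit how far reads can be given to a single gene. For the 48 members whose transcript has the same length in the tables and in M21, the share of 100-base windows found in no other gene on the same strand had a median of 47.8%, and 7 members were under 10%. Hist1h2ap was at 7.83%, sharing 353 windows with Hist1h2ao and 263 with Hist1h2ag, yet nearly all the level went to it: the 3 genes together summed to 2261 and 1728 TPM. The authors' tables also give a posterior spread of each count, which covers only the division of reads among annotated transcripts. Over members with 10 or more counts in both libraries, its SD was a median of 17.9% and 20.0% of the count where under 20% of windows were unique (8 members) and 1.05% and 1.23% where 60% or more were (12 members). For Hist1h2ap it was 0.218% and 0.322%. Summed as copies, Hist2h2aa1 with Hist2h2aa2 stood at 55.4 and 61.8 TPM, Hist2h3b with Hist2h3c1 and Hist2h3c2 at 35.0 and 25.0, Hist1h4m with Hist1h4n at 12.5 and 10.8, and Hist1h2bq with Hist1h2br at 3.28 and 3.32. With their transcripts listed under other identifiers, the last sum was 6.77 and 5.27 TPM.

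**Figure D4:**
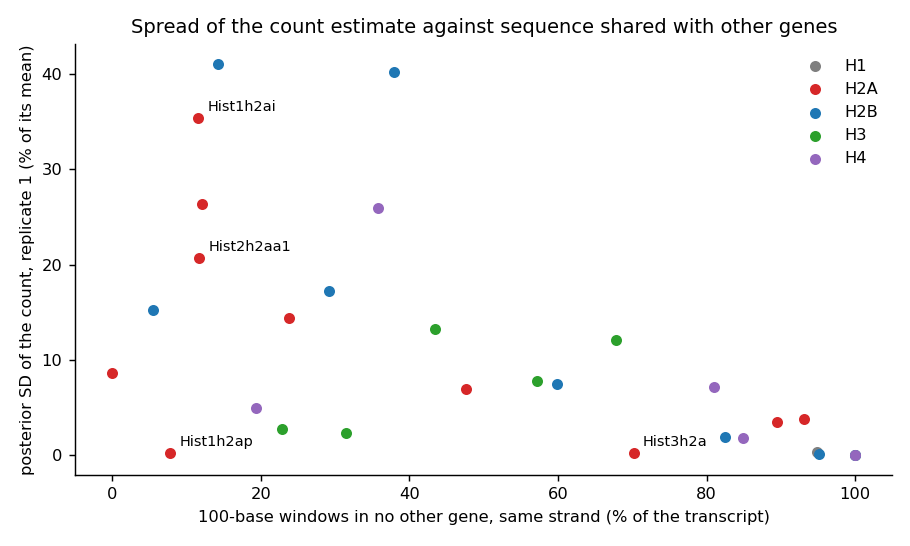
Each point is a member with 10 or more expected counts in both libraries; the x axis is the percent of its 100-base windows found in no other gene and the y axis the posterior SD of its count in replicate 1 as a percent of the posterior mean. Points under 20% unique have a median of 17.9% and points at 60% or more a median of 1.05%; Hist1h2ap, at 7.83% unique, has 0.218%.

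Some members overlap other genes. Hist1h2be overlaps Hist1h1e, and Hist3h2a overlaps Trim17. Hist2h2aa1 and Hist2h3c1 overlap the predicted gene Gm20634. In all these cases sequence is shared on the same strand, so strand would not separate the reads. Whether the counting used strand is not stated in the sources used here, so reads of any overlapping genes on opposite strands may not be told apart either. Under the members' own gene identifiers, Hist1h2be, Hist1h2bp, Hist1h2bq and Hist1h2br had more than 1 transcript in the tables, and for all 4 the same of these led in both libraries. Hist1h2be-203 carried 74.4% and 63.2% of the TPM of Hist1h2be, with Hist1h2be-202 at 25.6% and 36.8%. Hist1h2be-203 has no annotated stop codon and shares 351 windows with Hist1h1e. Hist1h2be-202, which has a stop codon, stood at 0.710 and 0.930 TPM. Hist1h2be thus reached 1 TPM in both libraries only with Hist1h2be-203. Hist1h2bp-201 carried 86.7% of Hist1h2bp in replicate 1 and all of it in replicate 2. M21 gives some members further transcripts that the tables list under other gene identifiers and that enter none of the members' values here. Hist1h2br-202 stood at 2.70 and 1.66 TPM, above the 0.820 and 0.380 of Hist1h2br itself, and Hist1h2bq-201 at 0.790 and 0.290. Hist2h3c1-202, of Hist2h3c1, stood at 0 and 1.75 TPM.

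The median histone gene differed little between the pools, while most of the few genes at the very top differed more. The log2 ratio of replicate 1 over replicate 2, scaled so that the typical gene stands near 0 and with a prior count of 2, was taken for the 48 members past the low-count filter; the other 19 members were too low. Its median was 0.18, against 0.002 over the 17763 genes past the filter, and 32 of 48 members (66.7%) were higher in replicate 1, against 50.4% of all genes. The genes with the highest levels, Hist1h2ap, Hist1h4d, Hist1h2bc, Hist1h2ae and Hist1h3i, stood at 0.42, 0.51, 0.02, 0.68 and 0.66. The next by mean level, Hist1h1c, Hist2h2aa2 and Hist3h2ba, stood at 0.10, -0.11 and 0.19. With scaling by the spike-ins the members' median was -0.42 and that of all genes -0.61, so the direction holds only relative to the typical gene. There is 1 library on each side, hence no test.

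The members that differed beyond 2-fold all had few reads. In replicate 1, 3 of the 48 members were more than 2-fold higher, where 1.24% of all genes were, and in replicate 2 1 member, where 2.34% were. These were Hist1h2ah, with 68.7 and 11.8 expected counts (log2 ratio 1.61), Hist2h2ac with 73.3 and 17.9 (1.15), Hist1h2br with 52.6 and 13.8 (1.04) and, in the other direction, Hist1h4k with 18.0 and 22.7 (-1.05). All 4 had a mean under 50 counts, where they were 4 of 19 members (21.1%); among all genes past the filter at that depth, 9.52% lay beyond 2-fold. Hist1h2bj (0.84) and Hist1h3a (0.75) followed upward, and Hist1h2bl (-0.89), Hist1h2ai (-0.77), Hist1h2ak (-0.28) and Hist1h2an (-0.23) downward. With posterior mean counts Hist1h2ah stood at 1.15, Hist1h2br at 0.62 and Hist1h4k at -0.99. None of the 16 members with a mean of 50 to 200 counts lay beyond 2-fold, where 7.79% of all genes did. None of the 13 members with 200 counts or more did, where 1.38% of all genes did. The ratios of these 13 lay between -0.20 and 0.68, with a median of 0.22, and Hist1h2ap stood at 0.42. With so few members, these counts do not set them apart from all genes.

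**Figure D5:**
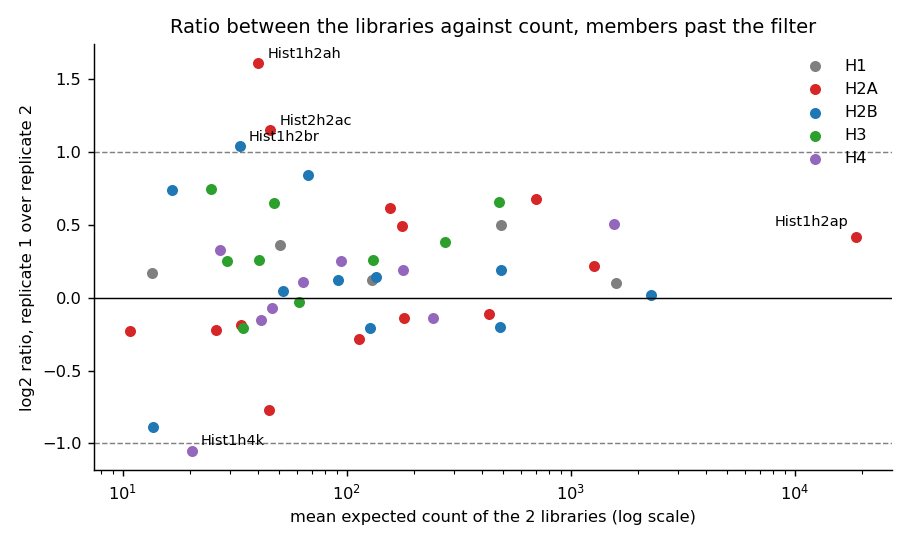
The log2 ratio of replicate 1 over replicate 2 is plotted against the mean expected count (log scale) for the 48 members past the filter, coloured by histone type, with dashed lines at 2-fold either way. The 4 named members beyond the dashed lines have under 50 counts on average, and Hist1h2ap, with the most counts, stands at 0.42.

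By type the median log2 ratio was 0.17 for H1 (5 genes past the filter), 0.06 for H2A (14), 0.12 for H2B (11), 0.26 for H3 (9) and 0.11 for H4 (9). By cluster it was 0.19 for Hist1 (39 genes), -0.13 for Hist2 (6) and 0.21 for Hist3 (2). These medians lay closer together than the members within a type, whose ratios ran from -0.77 to 1.61 among H2A genes. The log2 ratio of the summed TPM, without further scaling, was 0.35 for all members. By type it was 0.21 for H1, 0.37 for H2A, 0.06 for H2B, 0.45 for H3 and 0.38 for H4.

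Other RNAs moved between the pools as well. A list of 12 skeletal muscle genes was higher in replicate 1 for 12 of 12 (summed TPM 2447 and 202, median log2 ratio 4.44), and 15 stomach-defining genes, all at 1 TPM or more in both libraries, summed to 7646 and 11331 (-0.62). Liver genes stood at 0.33, erythroid genes at 0.13 and pancreas genes at -0.14. Of 4 RNAs without a poly(A) tail, a list chosen after values were seen, 3 passed the filter and all 3 were higher in replicate 1 (median 0.49): Rn7sk stood at 234 and 175 TPM, Rpph1 at 113 and 82.6 and Rmrp at 5.01 and 2.71. Terc, also on that list, stood at 0 and 0.180. The part of any of these in the histone ratio was not tested.

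Genes for making and handling histones were detected throughout. All 25 genes of a histone mRNA processing list reached 1 TPM in both libraries, where 64.3% of protein-coding genes did. The list had medians of 29.0 and 34.0 TPM and a median log2 ratio of 0.05. Slbp, the stem-loop binding protein, stood at 158 and 149.8 TPM, behind the Sm protein genes Snrpg (439 and 376), Snrpb (394 and 398) and Snrpe (415 and 368), whose proteins also serve the spliceosome. The lowest was Zfp473, a zinc finger protein of the U7 complex, at 1.5 and 1.97. None of the 25 differed by more than 2-fold, where 3.58% of all genes past the filter did.

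Histone chaperones carry histones to and from DNA. All 23 of that list were detected, against 64.3% of protein-coding genes (medians 78.8 and 82.3 TPM, median log2 ratio 0.03). Npm1 was highest at 573 and 520.5, followed by Rbbp7 at 478 and 494, Rbbp4 at 236 and 241 and Ssrp1 at 171 and 200.0, with Hira, the H3.3 chaperone, lowest at 2.64 and 2.89. All 30 S phase genes were detected as well (medians 60.6 and 60.2, ratio 0.04): the replication clamp gene Pcna at 168 and 165 TPM, Mcm6 at 162 and 166, Tyms at 167 and 159, Rrm2 at 117 in both, and E2f1 lowest at 7.53 and 6.79. The 20 genes of G2 and M phase had medians of 73.7 and 77.6 TPM and a ratio of 0.01, from Cdk1 (259 and 309), Ube2c (271 and 278), Birc5 (199.8 and 193) and Cdc20 (156 and 162) to Cenpe (15.8 and 15.5). The cell cycle medians were thus nearer to 0 than the 0.18 of the histone members; no test of that difference was possible with 1 library a side.

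Histone genes outside the rule gave most of the H3 and H1 mRNA in these tables. H3f3a and H3f3b, which encode the variant H3.3, stood at 1712 and 1626 and at 1281 and 1253 TPM. Together they made up 95.4% and 96.5% of the H3 sum, 2993 and 2879 TPM against 144 and 106 for the 12 members; H3f3c (341 ± 58.2 TPM), close in sequence, was left out of that sum. For H1, H1f0 (400.5 and 361) with H1fx made up 81.2% and 81.7%. For H2A the balance was nearer even: H2afz, H2afv, H2afx, H2afj, H2afy and H2afy2 summed to 1914 and 1817 TPM, 43.4% and 48.5% of all, led by H2afz at 1087 and 979.9. That balance rested on Hist1h2ap: without it the H2A members summed to only 263 and 219 TPM. H1foo, the oocyte H1, was listed at 0 in both. The mRNAs of these variants are mostly polyadenylated, and whether members and variants were captured alike was not tested.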

How the data were processed

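RNA-seq of 2 pooled stomach samples was analysed from the gene and transcript tables that the authors deposited, on mm10 with annotation M4 per the file headers and notes. Neither the aligner nor the quantifier is given in the sources used here. Expected counts were deposited by the authors as estimated reads per feature, with shared reads split. The authors deposited TPM and FPKM beside them, both corrected for length, with posterior means and SDs. Transcript tables as deposited by the authors give each transcript's percent of the TPM of its gene.

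Members were found by GENCODE M21 symbol (GRCm38). Transcript ends and shared windows came from M21 transcripts and were read only where a transcript had equal length in the tables (48 members; the stem-loop search used all M21 transcripts), and promoters from RefSeq (start sites within 500 bases of the M21 start). Spike-ins stayed out of library sizes. Expected counts were rounded, filtered with filterByExpr and scaled by TMM (factors 1.01 and 0.992) in edgeR 4.0.16 (R 4.3.3); the log2 ratio used a prior count of 2, and DESeq2 1.42.0 size factors gave an alternative. The biological coefficient of variation was 17.3%. The ratio step was tested on simulated data. Python 3.11.15, pandas 2.3.3 and matplotlib 3.10.9 did the rest. A gene at or above 1 TPM in each library was called detected; depth sets the precision of low members, and TPM of short transcripts depends on the effective length used. With 1 group no test between groups exists. Where nothing says that pools came from separate litters, the spread between them may be technical in part.

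Named were the 4 highest members of each type, the highest of each cluster, all of Hist3 and Hist4, the germ-line members, the 5 largest ratios each way, members with several transcripts, and the 4 highest and the lowest of each pathway list; copies and partners named beside these were chosen after their values were seen. The members and lists were chosen with earlier results of these data known.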

Additional observations from a re-analysis of the deposited data

How the results depend on the processing

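The 46 members at 1 TPM or more in both libraries became 25 at 5 TPM, and lay between 39 and 55 under the other alternatives run (50 without replicate 1 and 55 without replicate 2). With expected counts, which favour long transcripts by construction, H1 passed H3 and drew level with H4, H2B passed H4 and Hist3 drew level with Hist2: the shares were 7.32% for H1, 69.2% for H2A, 12.6% for H2B, 3.69% for H3 and 7.25% for H4, and 88.5%, 5.66%, 5.67% and 0.155% for Hist1 to Hist4. With the annotated in place of the effective length H1 stood at 3.40%, H4 at 8.58% and Hist3 at 2.47%. Over detected members only, Hist4 fell out (0%). Without Hist1h2ap, chosen after seeing the data, the shares were 9.23%, 25.3%, 24.8%, 13.0% and 27.7% for H1 to H4 in that order and 81.7%, 11.4%, 6.84% and 0.0749% for Hist1 to Hist4, and the members' mean sum fell from 2928 to 953 TPM. Without either replicate the sum was 2578 to 3277 TPM.

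The median log2 ratio of 0.18 turned to -0.42 with spike-in scaling, which moved all genes by -0.61. It was 0.12 and 0.15 with unscaled TPM and pseudocounts of 1 and 0.1, 0.19 with a prior count of 0.5, 0.23 with every gene kept, 0.19 where 50 counts on average were asked and 0.16 with posterior mean counts. The 3 members more than 2-fold higher in replicate 1 became 1 with spike-in scaling, 1 with TPM and a pseudocount of 1, 13 without a filter and 0 at 50 counts or more; the 1 member higher in replicate 2 became 3, 0, 5 and 0, and 0 with posterior mean counts. The cause of these shifts was not tested. No paired analysis was possible because both libraries belong to 1 group. Depth limits members under about 50 counts, and shared sequence those with few unique windows.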
